A study of Arabidopsis thaliana with 3 samples.

Results

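In young flowers of Arabidopsis thaliana, 696 of the 1852 regions bound by PISTILLATA (PI) also held a peak of its partner APETALA3 (AP3) whose maximum lay at most 50 bp from the PI maximum. These coincident peaks are described here. They were chosen by the positions of the peaks in both lists: a PI peak had to overlap an AP3 peak by at least 1 bp, and the closest maximum among the overlapping AP3 peaks had to lie within 50 bp. The members were therefore selected on values of the readout itself, so overlap, distance and everything that follows from them are given as description, with no test. Of the 1852 PI peaks, 37.6% met the rule (95% exact interval 35.4 to 39.8), and of the 1025 PI peaks that overlapped an AP3 peak at all, 67.9% did (64.9 to 70.8). The other 329 shared peaks had maxima more than 50 bp apart and are called offset peaks, and 827 PI peaks had no AP3 peak.

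PI and AP3 are MADS-domain transcription factors of the B class. In the flower they act as a heterodimer that binds DNA sequences known as CArG boxes, usually in larger complexes with SEPALLATA proteins, and they specify petals and stamens together with A-class and C-class factors. The dimer also maintains the expression of its own genes. In chromatin immunoprecipitation followed by sequencing (ChIP-seq), the maximum of a peak is the base where the signal of the bound region is highest, and it serves as an estimate of where on the DNA the precipitated protein was held.

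The study compared genomic regions bound by tagged PI and AP3, at about floral stage 4 to 5, with a negative control. The genotypes were PI-GFP AP1-GR ap1 cal, AP3-GFP AP1-GR ap1 cal and, as the control, AP1-GR ap1 cal, all in the Ler background (Landsberg erecta) and all precipitated with the same anti-GFP antibody. Every group, the control included, carried mutant ap1 and cal alleles and an AP1-GR fusion protein, which dexamethasone switches on so that flowers form in near synchrony. Plants of about 4 weeks, kept at 20 degrees Celsius, received 10 µM dexamethasone, and flowers were collected 4 days later. Each group was 1 library, so the peaks have no replicate check, and both peak lists share the control library, whose values were not analysed here. The promoters that drive the tagged proteins are not given in the labels. Scores are the authors' own, headed as Poisson, with no stated normalization for depth, and the depth is unknown. A score is used below to rank peaks within its list. Positions are those of the files, on the TAIR10 build.

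The maxima of coincident peaks mostly lay far closer than the limit. Their median distance was 8 bp, with quartiles of 1 and 23 bp. The maxima were at the same base in 132 of the 696 (19.0%, 16.1 to 22.1), at most 1 bp apart in 180, at most 10 bp apart in 376 and at most 25 bp apart in 540. The AP3 maximum was at the lower coordinate in 304 and at the higher coordinate in 260, so neither side held most of the members. The offset peaks had a median distance of 89 bp. The distribution fell steeply within the first 10 bp and had no gap at 50 bp: 3 pairs each lay at 48, 49 and 50 bp, against 11 at 51 bp and 6 at 52 bp.

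**Figure D1:**
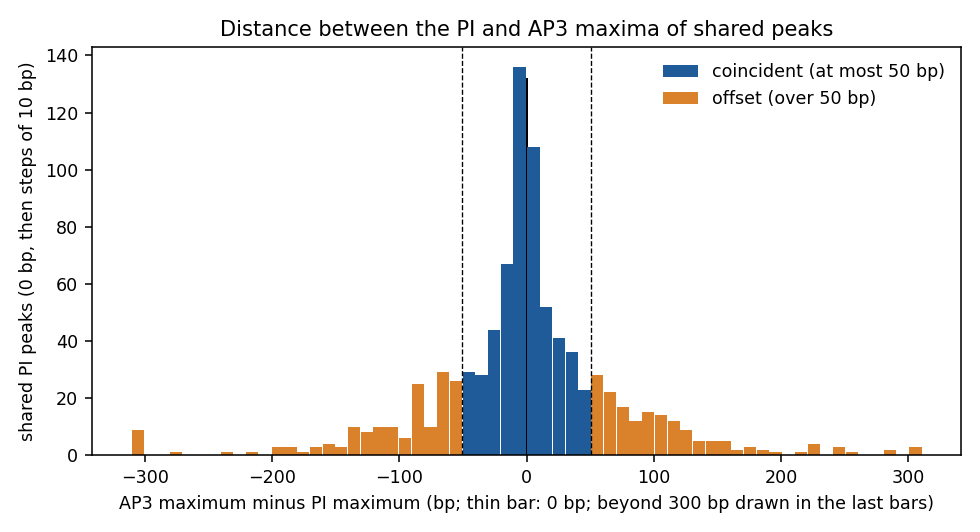
Number of shared PI peaks (vertical axis) by the signed distance from the PI maximum to the closest AP3 maximum in bp (horizontal axis). The thin black bar holds the 132 peaks at 0 bp, each wider bar a step of 10 bp, and dashed lines mark the 50 bp limit. Blue and black bars together are the 696 coincident peaks and orange bars the 329 offset peaks. The counts are highest at and next to 0 bp and decline on both sides without a gap at the limit.

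All 3 members at 50 bp were modest peaks, while AP1, with a PI score of 870, lay at 45 bp. Of the 11 shared peaks at 51 bp, the 3 with the highest PI scores are named here. Peaks at floral MADS-box genes were among them. At 50 bp stood a peak between CYP96A13 (AT5G02900), a cytochrome P450 gene, and AT5G02910, with a PI score of 163 and an AP3 score of 138. An unlinked peak on chromosome 3 (59.97 for PI and 86.6 for AP3) and a peak near AT3G55640 and AT3G55646 (43.8 and 41.7) also lay at 50 bp. At 51 bp stood the peak 2000 to 3000 bp upstream of SEP3 (AT1G24260), which encodes a SEPALLATA partner of the B-class proteins (1551 for PI and 1872 for AP3). The peaks at CRN (AT5G13290) and SFC (AT5G13300), with 417 and 203, and at SHP2 (AT2G42830) and HVA22F (AT2G42820), with 288 and 123, lay at 51 bp as well. CRN encodes a receptor-like kinase of the CLAVATA pathway and SHP2 a MADS-domain protein of carpels and ovules.

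The genes of the B-class proteins themselves held the highest peaks. The PI peak 0 to 1000 bp upstream of PI (AT5G20240) had the highest score of its list, 9217, and spanned chromosome 5, 6827876 to 6831200, a width of 3325 bp. The AP3 peak there was 532 bp wide, scored 1033 and ranked 17. Although the PI interval was several times wider, the maxima were 1 bp apart, at 6829014 for PI and 6829015 for AP3. Upstream of AP3 (AT3G54340), on chromosome 3, the relation of the libraries was the other way round. The AP3 peak scored 9926, the highest of its list, and was 1664 bp wide, while the PI peak scored 2038, ranked 13 and was 988 bp wide, with the maxima 26 bp apart. When the 696 members were ordered by the ratio of their scores, PI was rank 1 from the PI end and AP3 rank 2 from the AP3 end. A window of emb1967 (AT3G54350) downstream also contains the peak at AP3. Each peak was thus highest for the protein whose own gene it lay at. Whether the tagged construct adds to the signal at these genes was not tested.

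Besides PI and AP3, the highest coincident PI peaks lay at regulators of auxin response, flowering and organ growth as well as at genes of metabolism. PAP2 (AT4G29080), also named IAA27, encodes an Aux/IAA repressor of auxin response and had a peak 0 to 1000 bp upstream with 2428 for PI and 1285 for AP3, maxima 9 bp apart. The peak inside FRUCT5 (AT1G55120), an invertase-type gene, and 2000 to 3000 bp upstream of IDD7 (AT1G55110), a zinc finger gene of the indeterminate-domain family, scored 2407 and 2507 with maxima 29 bp apart. It ranked 5 in the PI list and 2 in the AP3 list. TEM1 (AT1G25560), a repressor of flowering, had 2315 and 1100 upstream, and PG2 (AT1G70370) had 2299 and 981, with the maxima of both factors at the same base in both cases. LSH1 (AT5G28490), which encodes an ALOG-domain protein, had 2198 and 522 with maxima 2 bp apart. The peak shared by windows of CCB1 (AT3G26710), a gene for assembly of a chloroplast cytochrome complex, and AT3G26700 scored 1944 and 1227. GRF5 (AT3G13960), a growth-regulating factor that promotes organ growth, had 1879.7 and 1539 in its window 2000 to 3000 bp upstream. That peak also lay 0 to 1000 bp downstream of AT3G13950. The remaining peaks of the 12 highest lay at AG, described below, at RPL16A (AT2G42740), a ribosomal protein gene (1716 and 365), and at 17319869 on chromosome 4, with no linked gene (1680 and 338). The peak 0 to 1000 bp upstream of RPL16A also lay inside AT2G42730 and 1000 to 2000 bp upstream of AT2G42750.

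Among the members with the highest AP3 scores were sites where PI ranked much lower. The peak 0 to 1000 bp upstream of BBX13 (AT1G28050), a B-box zinc finger gene, ranked 3 for AP3 with 1881 and 169 for PI with 457, and the maxima were at the same base. It also stood in windows of AT1G28040 and AT1G28060. The peak upstream of AT5G07620, AT5G07625 and AT5G07630 had 1403 for AP3 and 720 for PI, again at the same base. The peak upstream of the microRNA gene MIR158a (AT3G10745), also in windows of ASD1 and AT3G10750, had 1177 for AP3 (rank 11) and 312 for PI (rank 264), 4 bp apart. The rule fixes a close distance at every member, so the distances at these sites say nothing about the ranks. The AP3 end of the ratio ranks held the peak at OTP70 and AT4G25280 (348 for AP3 and 56.5 for PI), that at iPGAM1, a phosphoglycerate mutase gene, and COBL6 (276 and 60.7), and that at ELIP2, AT4G14695 and ORC1A (596 and 139). At the PI end, after PI itself, stood AT4G31340 (624 for PI and 72.6 for AP3), the peak at AT1G10740, AT1G10745 and AT1G10747 (432 and 51.2) and AT2G29970 (775 and 93.9). Distances at these 6 sites were between 0 and 13 bp.

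**Figure D2:**
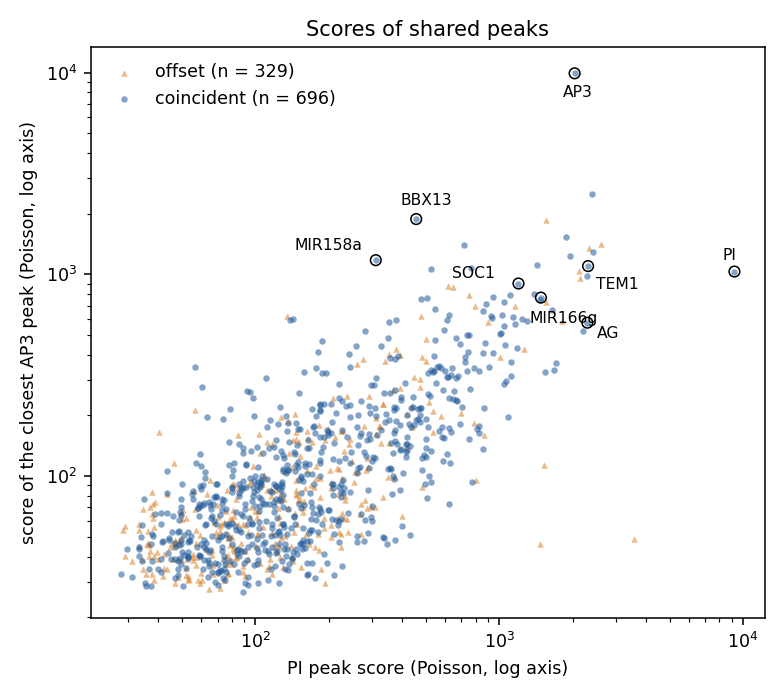
PI peak score (horizontal log axis) against the score of the closest AP3 peak (vertical log axis), both the authors' Poisson scores without units, for 696 coincident peaks (blue circles) and 329 offset peaks (orange triangles). Circled points are named genes. Scores rise together in both groups, and BBX13 and MIR158a lie above the band. The peak at PI has the highest PI score and the peak at AP3 the highest AP3 score.

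The PI and AP3 scores of the 696 members rose together, with a Spearman rho of 0.720 and a Pearson r of 0.760 on log2 scores. Over the 329 offset peaks the values were 0.680 and 0.730. The points share 2 libraries and a control, peaks are not replicates, and the width of a peak moves with its score, so the values describe these lists. The median PI score was 149.6 for coincident, 124 for offset and 55.7 for unshared peaks, and the median AP3 score was 91.6 for coincident and 67.4 for offset peaks. The shared peaks were also split by PI score into 5 groups of 205. The coincident share was 59.5% (52.5 to 66.3) in the lowest group and 79.0% (72.8 to 84.4) in the highest, with 66.3% to 67.8% in the groups between. The median distance of the maxima over all shared peaks was 34 bp in the lowest group and 14 bp in the highest. Of the 100 highest PI peaks, 99 were shared and 78 coincident, and of the 100 highest AP3 peaks 73 were coincident. Within the members, closeness did not simply follow the score: the median PI score was 135 at 0 bp, 173 at 1 to 10 bp, 136 at 11 to 25 bp and 132 at 26 to 50 bp.

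Of the 132 members with maxima at the same base, those with the highest PI scores are named here, so they are strong sites by choice. The median PI score of the 132 was 135, beside 149.6 for all 696 members. Genes linked to the named sites had different roles. Below TEM1 and PG2, the same-base members with the highest PI scores began with an unlinked peak on chromosome 4 with its maximum at 17730814 (1653 for PI and 668 for AP3). Next came a peak near AT1G79060, AT1G79070 and AT1G79075 (1295 and 588), and a peak inside AT2G03290 that also lay upstream of AT2G03280 (1188 and 432). ERF12 (AT1G28360), an ethylene response factor gene, had a peak of 1045 and 730 at 1000 to 2000 bp upstream. AT5G25580, AT2G41820 and AT2G03040 followed with PI scores of 946, 885 and 857 and AP3 scores of 776, 716 and 409. SARK (AT4G30520), a receptor-like kinase gene associated with senescence, had 786 and 344. At ERF12 the PI interval of 1463 bp and the AP3 interval of 1410 bp had the same maximum, whereas at AT2G03040 the intervals were 456 and 369 bp wide.

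**Figure D3:**
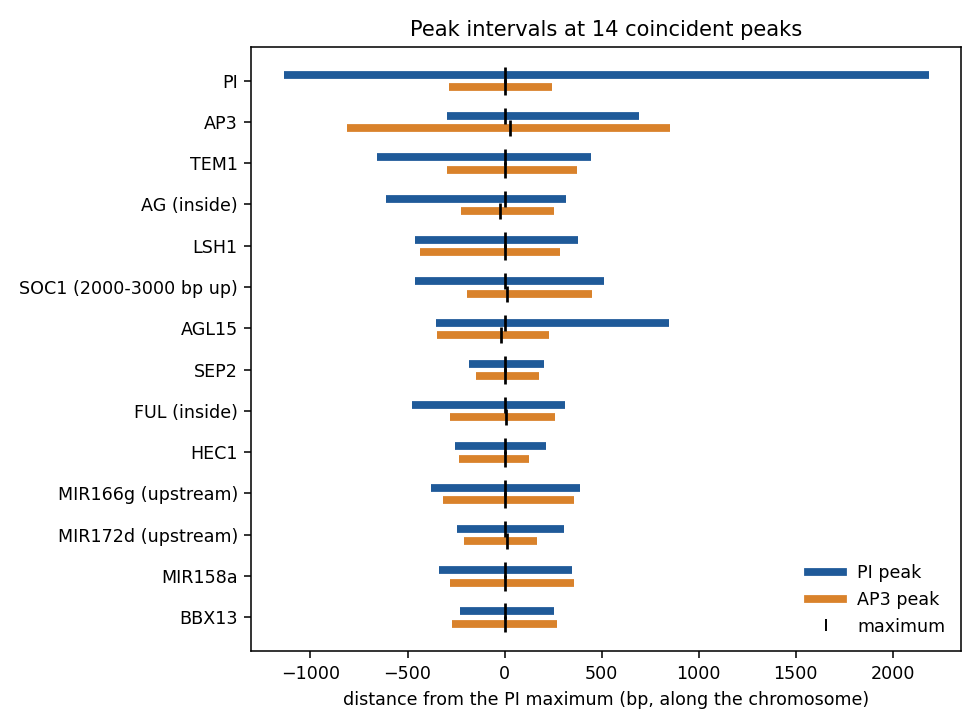
Extent of the PI peak (blue) and of the closest AP3 peak (orange) at 14 coincident peaks, drawn along the chromosome as the distance in bp from the PI maximum (horizontal axis). Black ticks mark the maxima of both factors. Intervals differ in width, most of all at PI (3325 bp for PI and 532 bp for AP3), while the ticks lie at most 26 bp apart.

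Floral MADS-box genes were often linked to coincident peaks. Of 22 MADS-box genes of the floral organ identity list, 13 had a coincident peak (59.1%, 36.4 to 79.3), beside 3.04% of all 27444 protein-coding genes. Of the same 22 genes, 5 were linked to an offset peak and 5 to an unshared one, and a gene can be in several groups. For 11 of the 13 the coincident peak was also the highest PI peak linked to the gene. AG (AT4G18960), the C-class gene for stamens and carpels, had a peak inside the gene on chromosome 4, 10385937 to 10386865, with 2298 for PI and 577 for AP3 and maxima 24 bp apart. A further coincident peak 1000 to 2000 bp upstream of AG scored 637 and 165. SVP (AT2G22540), which represses flowering and promotes early floral meristems, had 1051 and 447 at 2000 to 3000 bp upstream and 414 and 144 inside the gene. The higher of these peaks also lay 0 to 1000 bp upstream of AT2G22530, and the lower 2000 to 3000 bp upstream of it. AGL15 (AT5G13790), a MADS-box gene known from embryos and as a floral repressor, had 1051 and 554 at 0 to 1000 bp upstream.

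The genes that give the flower its meristem identity were among these 13. AP1 (AT1G69120), whose product specifies the floral meristem and sepals, had a peak inside the gene of 870 for PI and 219 for AP3 with maxima 45 bp apart. Its relative CAL (AT1G26310) had 272 and 64.7 with maxima 46 bp apart, so that both lay near the limit. FUL (AT5G60910), which acts in fruit and in the inflorescence, had 528 and 1062 inside the gene, 9 bp apart, and 416 and 125 at 1000 to 2000 bp upstream. SEP2 (AT3G02310) had 542 and 331 at 0 to 1000 bp upstream, 1 bp apart, and AGL6 (AT2G45650) had 370 and 96.8 at 2000 to 3000 bp upstream, at the same base. Every genotype carried mutant ap1 and cal alleles, and the effect of these alleles on binding at AP1 and CAL was not tested.

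Some MADS-box genes had coincident peaks that were not their main ones, or none. SEP3 had a same-base coincident peak of 110 for PI and 43.2 for AP3, while its peaks of 2141 and 957 inside the gene (72 bp apart) and of 1551 and 1872 upstream were offset. AGL18 (AT3G57390) had a coincident peak of 49.4 and 76.7 downstream and an offset peak of 867 and 161 upstream, 53 bp apart. SHP2 was linked to an offset peak and to no coincident peak. AGL42 and SEP4 had unshared peaks alone, with PI scores of up to 181 and 90.6. AGL13, AGL24, SEP1, SHP1 and STK were not in the authors' table of PI target genes, and FLC was in that table with no peak linked.

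SOC1 (AT2G45660), a MADS-box integrator of flowering signals, stood in the largest group of coincident peaks. There were 5 members with maxima between 18809251 and 18813150 on chromosome 2, a span of 3899 bp. The highest, 2000 to 3000 bp upstream, scored 1199 for PI and 902 for AP3 with maxima 14 bp apart. The peak 0 to 1000 bp upstream scored 482 and 123, 40 bp apart, and the peak inside the gene 464 and 215, at the same base. The remaining members lay between the peak inside the gene and the peak 0 to 1000 bp upstream, and scored 401 and 104, and 70.3 and 36.8. They had no linked gene, but each gene window lists only its highest score. Weaker peaks in a window of SOC1 would therefore go unlinked. Such grouping was seen at 60 places where neighbouring maxima were at most 3000 bp apart. These groups held 138 of the 696 members (19.8%), and 16 had 3 or more. The share over all PI peaks was not computed, so this value has no comparison here.

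The other genes with 3 linked coincident peaks were RLP29, AT1G21830, MIR166d and EXL4. RLP29 (AT2G42800) encodes a receptor-like protein and had PI scores of 738, 298 and 113 with AP3 scores of 502, 282 and 42.8 from the highest to the lowest. AT1G21830 had 612, 168 and 57.7 for PI and 596, 54.4 and 44.5 for AP3. EXL4 (AT5G09440), named as exordium-like, had 304, 169 and 72.8 for PI and 124, 74.3 and 67.6 for AP3. At each of these 3 genes the order of the peaks by PI score was also their order by AP3 score. MIR166d (AT5G08717), which encodes a microRNA against HD-ZIP III messages, had peaks of 554, 549 and 302 for PI and 346, 291 and 118 for AP3. Its peaks flank the short gene on both sides, and the lowest of them is downstream of MIR166c (AT5G08712) too. In all, 831 genes had 1 linked coincident peak, 58 had 2 and 5 had 3. Because a window lists only its highest score, these counts can miss weaker members.

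Regulators of flowering time and the floral meristem were linked to coincident peaks in 10 of 21 cases (47.6%, 25.7 to 70.2), and in 5 when only the windows inside the gene and 0 to 1000 bp upstream were counted. After TEM1, the highest was FD (AT4G35900), a bZIP factor that works with the florigen FT, with 1158 for PI and 566 for AP3 at 1000 to 2000 bp upstream, 34 bp apart. Its stronger peak downstream (2133 and 1041) had maxima 52 bp apart and was offset. ATH1 (AT4G32980), a BELL homeobox gene, had 1085 and 198 with maxima 9 bp apart, and TOE3 (AT5G67180), an AP2-like gene, 430 and 141 with maxima 22 bp apart. An unshared PI peak of 434 was the highest linked to TOE3. Coincident peaks stood also at LFY, UFO and AP2, which act upstream of or beside the B-class genes, and at CLV1, SMZ and SPL9. LFY had weak ones, 163 and 32.4 at 1000 to 2000 bp upstream and 135 and 51.9 at 0 to 1000 bp upstream. UFO had 379 and 217. WUS, CLV3, FT, TSF, CO, TEM2, TOE2, SNZ and SPL3 were not in the authors' table of PI target genes.

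Genes of organ boundaries and polarity were linked in 13 of 26 cases (50%, 29.9 to 70.1), and in 7 when only the windows inside the gene and 0 to 1000 bp upstream were counted. Offset peaks were linked to 5 of the 26 genes and unshared peaks to 7. LSH1 led, followed by LSH3 (AT2G31160), an ALOG-domain gene of boundaries, with 1118 for PI and 314 for AP3 and maxima 1 bp apart. AS1 (AT2G37630), a MYB-type repressor of KNOX genes in organ primordia, had 568 and 352, 30 bp apart. BOP1 (AT3G57130), which patterns organ bases, had 457 and 190 at 2000 to 3000 bp upstream, and its relative BOP2 had 184 and 121 at 0 to 1000 bp upstream. Polarity genes of both sides were present, with KAN2 (abaxial) at 181 for PI and 413 for AP3 and REV (adaxial) at 170 and 54.1. An unshared PI peak of 183 inside KAN2 was slightly higher than its coincident peak. Most other listed genes of the abaxial side had no PI peak: KAN1, KAN3, YAB1 and YAB3 were not in the authors' table of PI target genes. AS2, ATHB-15, LOF2 and RBE were not in that table either, and YAB5 and CUC2 were in it with no peak linked. The coincident peak was the highest linked PI peak at 10 of the 13 genes, and at PHB, as at CUC1, an offset peak was higher (141, beside 89.1 for the coincident one). At the boundary gene CUC1 the coincident peak was weak (64.8 and 37.0) beside an offset one of 390 and 275. PHV had an unshared PI peak of 727, the highest score among all unshared peaks. Of 16 KNOX and BELL homeobox genes, whose products act in meristems and in developing organs, 5 were linked (31.3%, 11.02 to 58.7). Besides ATH1 these were KNAT6 (391 and 179), KNAT4 (293 and 224), KNAT2 (184 and 101) and BLH2 (177 and 60.6). Unshared peaks were linked to 7 of the 16 genes and offset peaks to 3. The highest peak linked to KNAT2 was offset (229 for PI and 168 for AP3).

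Genes that act in particular floral organs had linked members in the carpel list and in the petal, stamen and anther list. Of 18 carpel genes, 6 were linked (33.3%, 13.3 to 59.0), and 2 when only the windows inside the gene and 0 to 1000 bp upstream were counted. ETT (AT2G33860), an auxin response factor that patterns the gynoecium, had 830 for PI and 177 for AP3 at 2000 to 3000 bp upstream. CRC (AT1G69180), a YABBY gene of carpels and nectaries, had 502 and 153, HEC1 (AT5G67060) 328 and 170 and NTT (AT3G57670) 268 and 157. HEC1 encodes a bHLH factor and NTT a zinc finger protein of the transmitting tract, and their maxima were at the same base. Of 24 genes of petals, stamens and anthers, the organs that PI and AP3 specify, 3 were linked (12.5%, 2.66 to 32.4), and 5 at a limit of 100 bp. These were EMS1 (AT5G07280), a receptor kinase gene of the tapetum, with 829.7 and 164, SPL8 (AT1G02065), an anther gene, with 356 and 259, and ROXY1 (AT3G02000), a glutaredoxin gene of petals, with 262 and 50.7. The petal and stamen genes ANT, AN3 and ARF6 had offset peaks and no coincident one.

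Hormone and growth lists held few linked genes. They were GRF5 and GRF3 (144 and 62.7) of 10 growth-regulating factors, where GRF3 also had a higher, unshared PI peak of 243, and TCP20 (125 and 87.7) of 14 TCP genes. The gibberellin receptor gene GID1C (502 and 192) was linked of 15 gibberellin genes, and PAP2 and ETT of 28 auxin genes. ARR17 (62.7 and 46.7), a cytokinin response regulator gene, was linked of 17, and BZR1 (375 and 382), a transcription factor of brassinosteroid signalling, of 12. The shares were 20% of growth-regulating factors, 8.33% of brassinosteroid, 7.14% of auxin and of TCP, 6.67% of gibberellin and 5.88% of cytokinin genes. They stand beside 3.04% of all protein-coding genes, a value inside the exact interval of each of these lists. At a limit of 25 bp neither ARR17 nor BZR1 was linked, and at 100 bp the auxin genes numbered 4 and the cytokinin, gibberellin and TCP genes 2 each. None of 12 greening and light regulators, 24 photosynthesis genes or 16 housekeeping genes was linked, which counts of this size leave compatible with shares of up to 26.5%, 14.2% and 20.6%. Over all lists 56 of 268 distinct genes were linked (20.9%, 16.2 to 26.3). Offset peaks were linked to 25 of the 268 and unshared peaks to 44, with 530 coincident, 247 offset and 489 unshared peaks linked to any gene. Of all 27444 protein-coding genes, 834 were linked to coincident, 386 to offset and 721 to unshared peaks. The listed genes thus had a raised share in all 3 groups of PI peaks. Whether the lists favour coincident over other PI peaks was not tested. The lists are small, several share genes, and the authors' gene tables decide which peaks can be linked.

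**Figure D4:**
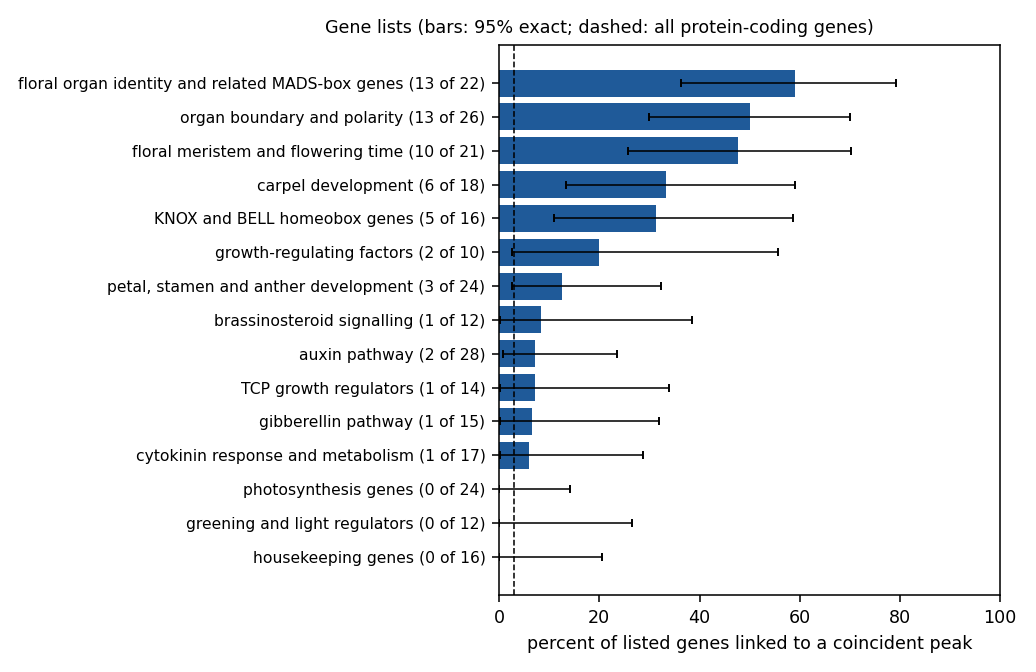
Percent of the genes of each list that were linked to a coincident peak (horizontal axis), with exact 95% intervals as error bars and counts beside the names. The dashed line is the 3.04% of all protein-coding genes. Lists of meristem, flower and carpel regulators reach 31.3% to 59.1%, apart from the petal, stamen and anther list at 12.5%, and the 3 lists at the bottom stand at 0.

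Through an identical score on the same chromosome, 530 of the 696 members (76.1%) could be linked to at least 1 gene, 101 shared their score with another PI peak and were left unlinked, and 65 had a score of their own that no gene window listed. The linked share was 75.1% of offset peaks and 68.4% of all PI peaks. A window lists only its highest score, so a member below a higher peak in the same window could not be linked. Lack of a link thus does not mean that no gene is near. Of the 530, 215 were linked to 1 gene, 214 to 2 and 101 to 3 or more. A gene named at a peak is therefore often not the only gene linked to it, and other linked genes were not always named. Which gene a peak acts on was not tested. The window 0 to 1000 bp upstream held 239 of them (45.1%, 40.8 to 49.4). The windows 1000 to 2000 and 2000 to 3000 bp upstream held 28.7% and 29.4%, the gene itself 26.6% and the 1000 bp downstream 33.8%. In the compact genome many peaks fall in windows of neighbouring genes. Upstream of at least 1 gene lay 422 of the 530 (79.6%), beside 78.8% of all linked PI peaks. Downstream of a gene and upstream of another were 128 (24.2%, beside 20.5%). Within 1000 bp upstream of 2 or more genes lay 48 (9.06%, beside 7.42%). Inside a gene and in no other window were 57 (10.8%, beside 11.3%). The corresponding share for 0 to 1000 bp upstream was 53.0% (46.6 to 59.4) in offset peaks and 43.4% (38.9 to 47.9) in unshared ones, intervals that overlap that of the coincident peaks.

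**Figure D5:**
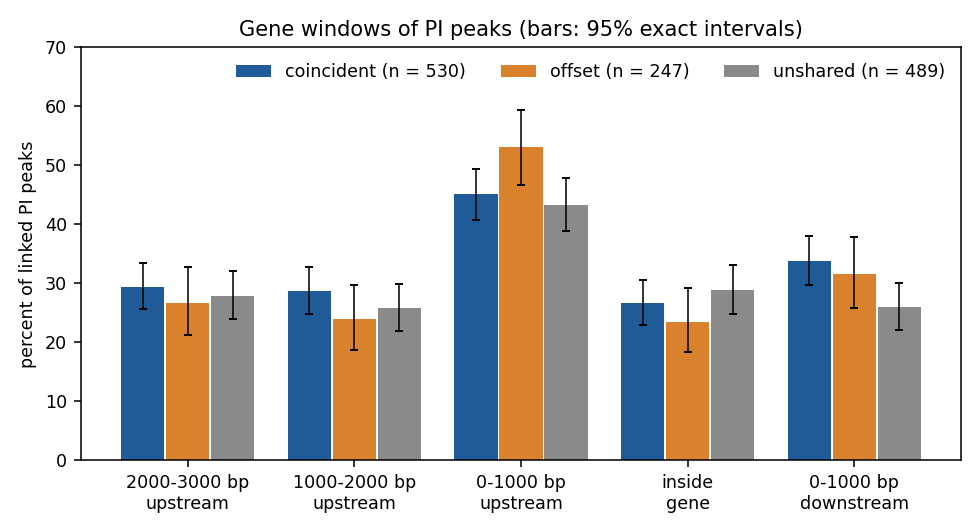
Percent of linked PI peaks in each of the 5 gene windows (vertical axis) for 530 coincident (blue), 247 offset (orange) and 489 unshared peaks (grey), with exact 95% intervals as error bars. A peak can stand in several windows. All 3 groups are highest at 0 to 1000 bp upstream, and the intervals of the 3 groups overlap in all 5 windows.

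The 530 linked members named 894 genes, of which 834 were protein-coding, 13 tRNA, 11 microRNA and 11 long non-coding RNA genes. The AP3 table of target genes listed 893 of them, beside 411 of the 416 genes linked to offset peaks and 1305 of the 1951 linked to any PI peak. Since the rule requires an AP3 peak at every member, such a listing is largely built in. Of the 962 gene windows that a coincident PI peak filled, 937 (97.4%) had the score of its AP3 partner in the same window of the AP3 table, beside 375 of 434 (86.4%) for offset peaks. How the authors assigned peaks to windows is not stated, and the part of the distance limit in this difference was not tested. The annotation of 61 of 857 named genes with a description (7.12%, 5.49 to 9.05) contained the words transcription factor, beside 8.29% for offset and 8.58% for unshared peaks. Descriptions with homeobox or homeodomain made up 0.933% of coincident, 2.07% of offset and 1.77% of unshared genes, and those with MADS 1.63%, 1.81% and 0.545%, all with intervals that overlap between the groups.

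The rule uses the maxima and the overlap, so the shape of the intervals is in part fixed by it. The PI maximum lay a median of 28.5 bp from the midpoint of its interval in coincident peaks and 46.5 bp in offset peaks, and for AP3 27.5 and 36.5 bp. Midpoints of the PI and AP3 intervals were a median of 25 bp apart in coincident and 41.5 bp in offset peaks. The median PI width was 406.5 bp in coincident and 421 bp in offset peaks, and the median AP3 width 306.5 and 297 bp. The overlap was 71.5% of the joint interval in coincident and 66.0% in offset peaks. In 490 of the 696 members (70.4%, 66.9 to 73.8) the AP3 interval lay wholly inside the PI interval, beside 61.7% (56.2 to 67.0) of offset peaks. The PI interval was the wider in 84.5% and 83.3%. No member shared its AP3 peak with another member, and 21 overlapped 2 or more AP3 peaks. All of these values come from the intervals and maxima that chose the members and are given as description.

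The share of coincident among shared peaks was between 62.6% and 75% on the 5 chromosomes. The median distance between neighbouring members was 71839 bp. Coincident maxima do not show that both proteins were on the same molecule of DNA, since each library averages over many cells and plants, and the precision of a maximum in these lists is not known.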

How the data were processed

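ChIP-seq peak lists of the PI-GFP and AP3-GFP libraries, 1 each, were used, without values of the negative control. BWA 0.6.1, SAMtools and TAIR10 are named in the submitters' processing notes. Peak caller, score threshold and gene annotation were not given in the sources used here. The authors deposited start, end, width and maximum of each peak in bp, a score headed Poisson per the file headers, and gene tables with the highest score in 5 windows from 3000 bp upstream to 1000 bp downstream.

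Peaks were paired by an overlap of at least 1 bp with pandas 2.3.3 and numpy 2.4.6 (Python 3.11.15), taking the closest AP3 maximum, and coincidence meant at most 50 bp. The pairing was tested on simulated peaks, none of which overlapped several AP3 peaks, so the choice among several was not covered by that test. A gene was linked through chromosome and identical score where 1 peak had it, so tied scores gave no link. Exact Clopper-Pearson 95% intervals (scipy 1.17.1) cover counting error only; figures used matplotlib 3.10.9. Names and gene types were read from RefSeq (assembly TAIR10.1, coordinates unused), which held 2490 of 2544 PI table genes and 268 of 270 listed symbols.

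The members and the 15 gene lists were chosen with earlier results of these data known. Named were genes of the 12 highest PI and 8 highest AP3 scores, of the 10 highest same-base members, up to 4 per list by PI score (all for MADS-box genes), the 4 highest and lowest ratio ranks, genes with 3 or more members, and 3 peaks on each side of the limit. The peaks on each side of the limit were the nearest ones, taken by highest PI score. Other genes named were chosen after their values were seen. Alternatives covered the limit, overlap, partner, score minimum and gene link. With 1 library per group no test between conditions was possible, and no p-value is given.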

Additional observations from a re-analysis of the deposited data

How the results depend on the processing

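The count of 696 coincident peaks and their 67.9% share of shared peaks depend on the limit by construction. A limit of 10 bp gave 376 peaks and 36.7%, a limit of 25 bp 52.7% and a limit of 100 bp 86.4%. Removing peaks below the median score of their list gave 412 peaks, since fewer remained, and 72.3%; the cause of the higher share was not tested. Reciprocal overlap of 50%, the highest-scoring partner, AP3 as reference and lists of equal length kept the share between 65.7% and 69.7%. Keeping tied links moved the windows 0 to 1000 bp upstream to 50.2%, 2000 to 3000 bp upstream to 33.8% and inside the gene to 32.5%, since a tied score links several peaks. Among same-base members, an alternative added after seeing the data, these were 53.8% (0 to 1000 bp upstream), 19.8% (inside) and 26.4% (downstream). Reciprocal overlap raised the median AP3 score to 110.7 and rho to 0.776; the cause was not tested. Counting only windows inside genes and 0 to 1000 bp upstream left 34 of the 56 listed genes, since fewer windows count. Of the 65 values recomputed for these summaries, the other 50 stayed within the interval or within 1.5 times the count, including scores without the peaks at PI and AP3. Of 60 recomputed counts for single gene lists, 13 moved by more than 1.5 times. Counting only the nearer windows left 5 flowering, 7 boundary, 2 carpel and 1 auxin gene and 0 cytokinin and brassinosteroid genes, and the changes with the limit stand in the report. The planned search for CArG boxes was not run. No paired analysis was possible because each group has 1 library. Depth is unknown, and how the score or width of a peak bears on the precision of its maximum was not tested.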

Other observations

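Coincident peaks were also linked to 11 microRNA genes of 326 annotated ones (3.37%), near the 3.04% of protein-coding genes. They were chosen for description after their values were seen. Genes of messages that some of these small RNAs are known to target are named beside them as examples, without a complete list of targets, so no share of targets can be read from them. Several of the peaks also stood in windows of other genes, such as KPL at MIR166g, CDKD1;1 at MIR159a, Tic62 at MIR418 and SIZ1 at MIR391. Which gene such a peak acts on was not tested. MIR172d, whose microRNA acts on AP2-like messages, had peaks of 503 for PI and 125 for AP3 at 1000 to 2000 bp upstream and of 231 and 87.2 downstream. Of its target family, AP2 had coincident peaks of 426 and 181 and of 225 and 61.0, SMZ of 300.3 and 59.8 and TOE3 of 430 and 141, while TOE1 had an unshared peak of 71.7 and TOE2 and SNZ were not in the PI table. MIR166g had a peak of 1483 and 768 upstream, with maxima 2 bp apart, and of 419 and 201 downstream, and MIR166c and MIR166d are described above. Among the HD-ZIP III genes that miR166 targets, REV and PHB had coincident peaks of 170 and 54.1 and of 89.1 and 26.6, while PHV had unshared peaks and ATHB-15 was not in the PI table.

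MIR156f and MIR156e, which act on SPL messages, had coincident peaks of 494.5 for PI and 91.6 for AP3 and of 135 and 113, each 2000 to 3000 bp upstream. Of that family SPL9 had 280.4 and 60.8, SPL2 182 and 70.6 and SPL11 151 and 96.1, and SPL3 was not in the PI table. TASIR-ARF, a source of small RNAs against ETT and ARF4 messages, had same-base coincident peaks of 235 and 223 and of 59.4 and 40.1, beside the coincident peak at ETT, while ARF4 was not in the PI table. MIR159a, whose microRNA acts on messages of GAMYB-like factors, had 506 for PI and 766 for AP3 with maxima 5 bp apart. MIR169c had 541 and 393, MIR418 357 and 387 at the same base and MIR391 108 and 46.0. Targets of the microRNAs from MIR159a and MIR169c were not tallied.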
